A study of Homo sapiens with 23 samples.

Results

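ETS factors are transcription factors that share the ETS DNA-binding domain. The 10 genes described here, of the 28 ETS family genes that all 3 count tables of the study list, are ETV1, ETV4 and ETV5 (the PEA3 group), ERG, ETS1 and ETS2, and the epithelial factors SPDEF, EHF, ELF3 and ELF5. They were chosen by name, with earlier results from these libraries known, and ETV1's level in the 2 LNCaP control sets was part of that choice. ETV1's differences between LNCaP overexpression or the OC2 hairpin and a control set, and every difference between the control sets themselves, are therefore given as descriptions with no test.

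The study measured RNA by sequencing in 23 libraries of LNCaP and LAPC4, both androgen-sensitive human prostate adenocarcinoma lines, to see what ONECUT2 (OC2), a CUT-homeodomain transcription factor, changes when it is raised, lowered or inhibited. LNCaP cells overexpressing OC2 (2 libraries) stand beside LNCaP control cells (2 libraries). LNCaP cells with a hairpin against OC2 (shOC2, 2 libraries) stand beside cells with a control hairpin (shCon, 2 libraries), each arm resting on a single hairpin. LAPC4 cells, grown with the synthetic androgen R1881 at 1 nM, overexpressed OC2 (3 libraries) or carried the vector (3 libraries). Another set of LNCaP libraries came from a 7-day exposure to vehicle, to the antiandrogen enzalutamide at 10 µM, or to a combination of enzalutamide at 10 µM and an OC2 inhibitor at 10 µM (3 libraries each). There was no arm with the inhibitor alone, and the labels do not name the inhibitor's structure, the overexpression construct or any clone. The labels do not say whether libraries of a group came from separate cultures, so p-values measure the spread between libraries, which may be technical.

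The ETS domain binds DNA around a GGAA core. ETV1, ETV4 and ETV5 are raised by ERK signalling, repressed by CIC and degraded through the ubiquitin ligase COP1. In prostate cancer ERG and ETV1 are the ETS genes most often switched on by rearrangement, and LNCaP is known for an insertion of the ETV1 gene into the MIPOL1 locus on another chromosome. SPDEF, EHF, ELF3 and ELF5 are factors of epithelial and secretory cells, and SPDEF is typical of luminal prostate epithelium.

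In GENCODE 29 on hg38, ETV1 lies on chromosome 7 from 13891228 to 13991425, ETV4 on chromosome 17 from 43527844 to 43579620, ETV5 on chromosome 3 from 186046308 to 186110318, ETS1 on chromosome 11 from 128458761 to 128587558 and SPDEF on chromosome 6 from 34537802 to 34556333, all on the minus strand. On the plus strand, ELF3 spans 202007945 to 202017188 of chromosome 1. EHF (34621093 to 34661057, plus strand) and ELF5 (34478793 to 34513805, minus strand) are close to each other on chromosome 11, as are ERG (38380027 to 38661780, minus strand) and ETS2 (38805307 to 38824955, plus strand) on chromosome 21. Exons of ETV4 overlap DHX8 on the other strand, those of ETV5 overlap DGKG, and those of ELF3 overlap ELF3-AS1 on the other strand and AL691482.3. Whether the counting used strand is not given in the sources used here, so reads of the pairs on opposite strands may be mixed. DGKG and AL691482.3 lie on the same strand as ETV5 and ELF3, so there strand could not separate the shared bases. The other 7 members share no exon with another gene.

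Upstream windows are shown for ETV1, ETS2 and SPDEF, 3 of the members that differed with OC2 overexpression in both lines, ETS2 in LNCaP only against control. EHF, ELF3 and ELF5 also differed in both lines, ELF5 in LNCaP only against control, and their windows are not printed. Each is the 250 bases before a RefSeq transcription start (GRCh38.p14), on the gene's own strand, at chr7:13991426-13991675 (minus), chr21:38804933-38805182 (plus) and chr6:34556330-34556579 (minus). Capitals mark matches to the ETS-type motif CCGGAA and to 2 ONECUT-type motifs, ATTGAT and ATCGAT, searched on both strands (reverse complements TTCCGG and ATCAAT, the last motif being its own reverse complement).
ETV1: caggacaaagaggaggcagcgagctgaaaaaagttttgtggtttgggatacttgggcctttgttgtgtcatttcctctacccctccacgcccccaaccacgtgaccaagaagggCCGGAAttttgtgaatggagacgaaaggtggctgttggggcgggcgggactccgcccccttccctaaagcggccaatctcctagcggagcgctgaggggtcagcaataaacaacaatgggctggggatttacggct
ETS2: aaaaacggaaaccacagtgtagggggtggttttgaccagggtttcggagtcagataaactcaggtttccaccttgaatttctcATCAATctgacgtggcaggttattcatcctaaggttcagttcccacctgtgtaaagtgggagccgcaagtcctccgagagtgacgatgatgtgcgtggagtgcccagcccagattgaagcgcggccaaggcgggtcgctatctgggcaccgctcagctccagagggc
SPDEF: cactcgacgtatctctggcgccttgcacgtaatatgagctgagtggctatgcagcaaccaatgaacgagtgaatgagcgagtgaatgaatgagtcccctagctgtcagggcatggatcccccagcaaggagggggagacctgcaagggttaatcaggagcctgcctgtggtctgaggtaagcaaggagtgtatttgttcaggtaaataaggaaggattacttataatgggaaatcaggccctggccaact
The ETV1 window, which ends at the outermost annotated start of the gene, held 1 CCGGAA and no ONECUT-type match. The ETS2 window held 1 match to ATTGAT, read as ATCAAT on the printed strand. The SPDEF window held none of the 3 motifs. The windows of EHF, ELF3, ELF5 and ERG, not printed, held none of them either. For ETV4, ETV5 and ETS1 the source used here gave no window. Of 35116 RefSeq promoter windows of the same length, 14.5% held CCGGAA, 5.58% held ATTGAT and 0.655% held ATCGAT, and a match here describes the letters of a window, not a bound site.

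The libraries held 20964025 to 30465978 counts. ONECUT2 itself was at 333 and 304 CPM (read counts scaled to library size) in LNCaP overexpression, 24.6 and 30.7 in control, 20.4 and 21.3 in shCon and 12.1 and 12.2 in shOC2, and rose 5.85 on the log2 scale in LAPC4 (SE 0.12). Its level in combination did not pass the test against vehicle (log2 fold change -0.15, SE 0.15). All 11 luminal prostate markers were at 1 CPM or more in every group, but their sum moved with the comparisons. It was 4363 to 4567 CPM in LNCaP overexpression, 7044 to 7234 in control, 6059 to 6420 in shCon and 8335 to 8383 in shOC2. In LAPC4 it was 3941 to 4212 CPM in vector and 2949 to 3121 with OC2, and in the drug arms 6005 to 6517 in vehicle, 3014 to 3462 in enzalutamide and 3790 to 4041 in combination. Of the 11, 6 fell and 2 rose in LNCaP overexpression against control, 7 and 3 against shCon, 9 and 1 in LAPC4 and 8 and 2 in enzalutamide. Over all genes 29.3%, 30.8%, 29% and 35.6% were called lower in these comparisons, and 31.6%, 33.2%, 32.1% and 34.7% higher. With the hairpin 7 markers rose and 3 fell, where 27.3% of all genes were called higher and 26.8% lower. The part of the luminal markers in the results for SPDEF and EHF was not tested. The 5 basal markers summed to at most 1.58 CPM in the LNCaP libraries but to 82.2 to 193 CPM in LAPC4 vector and 480 to 507 CPM in LAPC4 overexpression, so the basal markers move with the LAPC4 comparison, and their part in the LAPC4 results below was not tested. The 7 blood markers summed to at most 1.69 CPM in any library. Enzalutamide library 1, LAPC4 vector library 3 and combination library 2 stood farther from the other libraries of their groups, and values without them are given where they matter. The enzalutamide columns are whole counts while the vehicle and combination columns are estimated counts. The counting step behind them is not given in the sources used here, and a difference from counting cannot be told apart from the drug. In bulk RNA, fewer cells of a type and less RNA per cell cannot be told apart.

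On a scale that allows genes to be compared (CPM per kb of exon), 2 epithelial factors supplied most of the ETS transcript in LNCaP and LAPC4 vector cells. SPDEF made up 47.2% of the summed ETS level in LNCaP control, 40.1% in shCon, 42.2% in vehicle and 57.8% in LNCaP overexpression, and ranked first in those groups. EHF ranked first in both LAPC4 groups, at 39.8% of the sum in vector, and in enzalutamide, where EHF reached 43.8% and SPDEF 12.4%. ETV1 was the third of the 28 genes in LNCaP overexpression (28.8 CPM per kb, 7.78% of the sum), while it made up 4.19% in shCon, 7.43% in vehicle and 0.02% in control. The summed ETS level ran from 192 ± 11.3 CPM per kb (SD, n = 3) in combination to 422 ± 29.6 (n = 3) in LAPC4 vector. Levels in different tables were scaled separately and are set side by side only as an order.

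**Figure D1:**
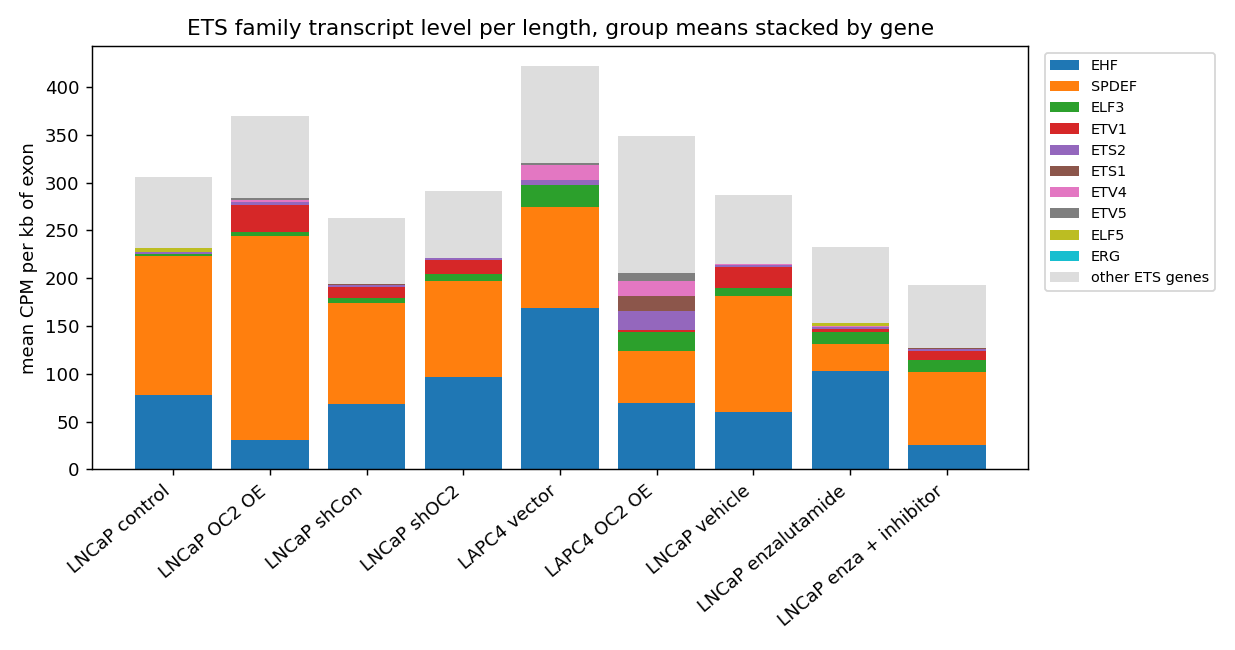
Mean CPM per kb of exon (vertical axis) of the ETS family genes, stacked by gene, in each of the 9 groups (horizontal axis). SPDEF and EHF form most of the bar in the LNCaP groups, ETV1 is visible in LNCaP overexpression and vehicle and not in LNCaP control, and ETS1 appears in LAPC4 overexpression.

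ETV1, an ERK-driven PEA3 factor, had the widest range of levels among the members that were detected in every group. It was at 0.678 and 0.534 CPM in the 2 LNCaP control libraries, 104.9 and 106.4 in shCon, 132.0 and 142.0 in shOC2 and 270.8 and 283.0 in LNCaP overexpression. The 2 control sets thus differed by 174-fold in ETV1, more than the 2.62-fold difference between overexpression and shCon, and no library of 1 group overlapped another. Against control, overexpression was 8.81 higher on the log2 scale, and against shCon it was 1.38 higher, and both are descriptions. Hairpin against OC2 went with a higher, not a lower, ETV1 level (log2 fold change 0.38), which is a description too.

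In LAPC4 ETV1 was almost silent with the vector, with 0, 1 and 1 counts, and stood at 21.9, 23.5 and 23.6 CPM with OC2. The ratio of counts was 999 (exact 95% interval 276 to 8255, counting error only). ETV1 passed the count filter through the OC2 group only and had to differ. In the drug table ETV1 was at 200.4, 221.8 and 192.8 CPM in vehicle, at 51.9, 27.1 and 29.1 in enzalutamide and at 79.5, 106.2 and 80.0 in combination. All 3 arms were separate, with combination between the other two. ETV1 was 5.69-fold lower in enzalutamide than in vehicle (log2 fold change -2.51, SE 0.23, adjusted p = 4.88e-06; -2.87 without enzalutamide library 1), and combination was 2.31-fold lower than vehicle (log2 fold change -1.21, SE 0.22, adjusted p = 0.00144). Combination stood 1.30 above enzalutamide on the log2 scale (SE 0.22, adjusted p = 0.000565). These 3 contrasts share arms and are not independent. Across the groups the order of mean ETV1 levels was LNCaP overexpression (277 CPM), vehicle (205), shOC2 (137), shCon (106), combination (88.6), enzalutamide (36.0), LAPC4 overexpression (22.99), LNCaP control (0.606) and LAPC4 vector (0.0231). Among neighbours in this order, the libraries of shCon and combination overlapped, with combination library 2 between the 2 shCon libraries.

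ETV4 and ETV5, the other PEA3 factors, were low in LNCaP and rose with OC2 against both control sets. ETV4 was at 9.31 and 10.3 CPM in LNCaP overexpression, 0.0968 and 0.0891 in control, 0.662 and 0.541 in shCon and 0.139 and 0.136 in shOC2. The libraries of these groups did not overlap. ETV4 rose 6.62 on the log2 scale against control (SE 0.31, adjusted p = 1.13e-07) and 4.01 against shCon (SE 0.21, adjusted p = 1.27e-07). Against control it passed the count filter through the overexpression group only, and with the hairpin through shCon only, so these 2 differences had to lean that way. It fell by 2.08 with the hairpin (SE 0.54, adjusted p = 0.00845), from 16 and 13 counts to 3 and 3, a call that ended with DESeq2 (adjusted p = 0.105) and without shCon library 1 or either shOC2 library. In LAPC4 ETV4 was already at 57.3, 59.7 and 52.7 CPM in vector and at 60.7, 56.8 and 56.7 with OC2, which overlapped (log2 fold change 0.04, SE 0.07, adjusted p = 0.655). DHX8, whose exons overlap ETV4, was at 44.7 to 58.8 CPM in the groups of the LNCaP table. It averaged 51.2 CPM in overexpression and 44.7 in control (log2 fold change 0.18, SE 0.08), and reads shared by the pair cannot be told apart.

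ETV5 was at 6.89 and 8.10 CPM in LNCaP overexpression, 0.436 and 0.401 in control and 0.868 and 0.832 in shCon. It rose 4.13 on the log2 scale against control (SE 0.25, adjusted p = 7.47e-07) and 3.13 against shCon (SE 0.21, adjusted p = 7.76e-07), and in the first of these it passed the count filter through overexpression only. With the hairpin it was at 0.831 and 0.498 CPM and did not pass the test (log2 fold change -0.35, SE 0.39). In LAPC4, where ETV4 did not pass, ETV5 rose 3.79-fold, from 12.3, 13.8 and 12.8 CPM to 48.4, 48.2 and 50.6 (log2 fold change 1.92, SE 0.08, adjusted p = 2.46e-08). Vector and OC2 libraries were well apart. DGKG, which shares exon bases with ETV5, was at 2.24 ± 0.15 CPM (SD, n = 3) with OC2 in LAPC4, 3.19-fold its mean in vector. In LNCaP it averaged 0.545 CPM with OC2, 0.214 in control and 0.103 in shCon, on 1 to 14 counts per library, ratios of 2.55 and 5.27. The libraries did not overlap in these 3 comparisons, so DGKG was higher in the same groups as ETV5, and reads shared by the pair cannot be told apart.

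The drug arms separated ETV4 from ETV1. ETV4 was at 1.34, 0.623 and 0.938 CPM in enzalutamide, at 0.0975, 0.146 and 0.241 in vehicle and at 0.136, 0.0459 and 0.136 in combination. It was thus above both other arms in every enzalutamide library, 5.83-fold against vehicle (log2 fold change 2.54, SE 0.47), and combination was 8.75-fold below enzalutamide (log2 fold change -3.13, SE 0.50). ETV4 passed the count filter through the enzalutamide group only in both comparisons and had to differ. All of these ETV4 levels rest on 1 to 44 counts per library. DHX8, whose exons overlap ETV4, averaged 75.6 CPM in enzalutamide, 51.9 in vehicle and 58.6 in combination, with no overlap of libraries. It was thus also highest in enzalutamide, and reads shared by the pair cannot be told apart. ETV5 was at 0.878, 0.536 and 0.676 CPM in vehicle, 1.52, 1.31 and 1.13 in enzalutamide and 1.13, 1.79 and 1.09 in combination. It passed against vehicle in enzalutamide (log2 fold change 0.92, SE 0.31, adjusted p = 0.0210) and in combination (0.94, SE 0.31, adjusted p = 0.0321). The first call ended without enzalutamide library 1 (adjusted p = 0.0505) and without vehicle library 2 or 3. The second ended without combination library 2 (log2 fold change 0.67, adjusted p = 0.121), without vehicle library 2 or 3, with no low-count filter and with a replicate block (adjusted p = 0.0575). DGKG, which shares exon bases with ETV5, averaged 0.197 CPM in enzalutamide, 0.0650 in vehicle and 0.0762 in combination. Its enzalutamide libraries overlapped neither other arm, while vehicle and combination overlapped, and reads shared with ETV5 cannot be told apart.

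**Figure D2:**
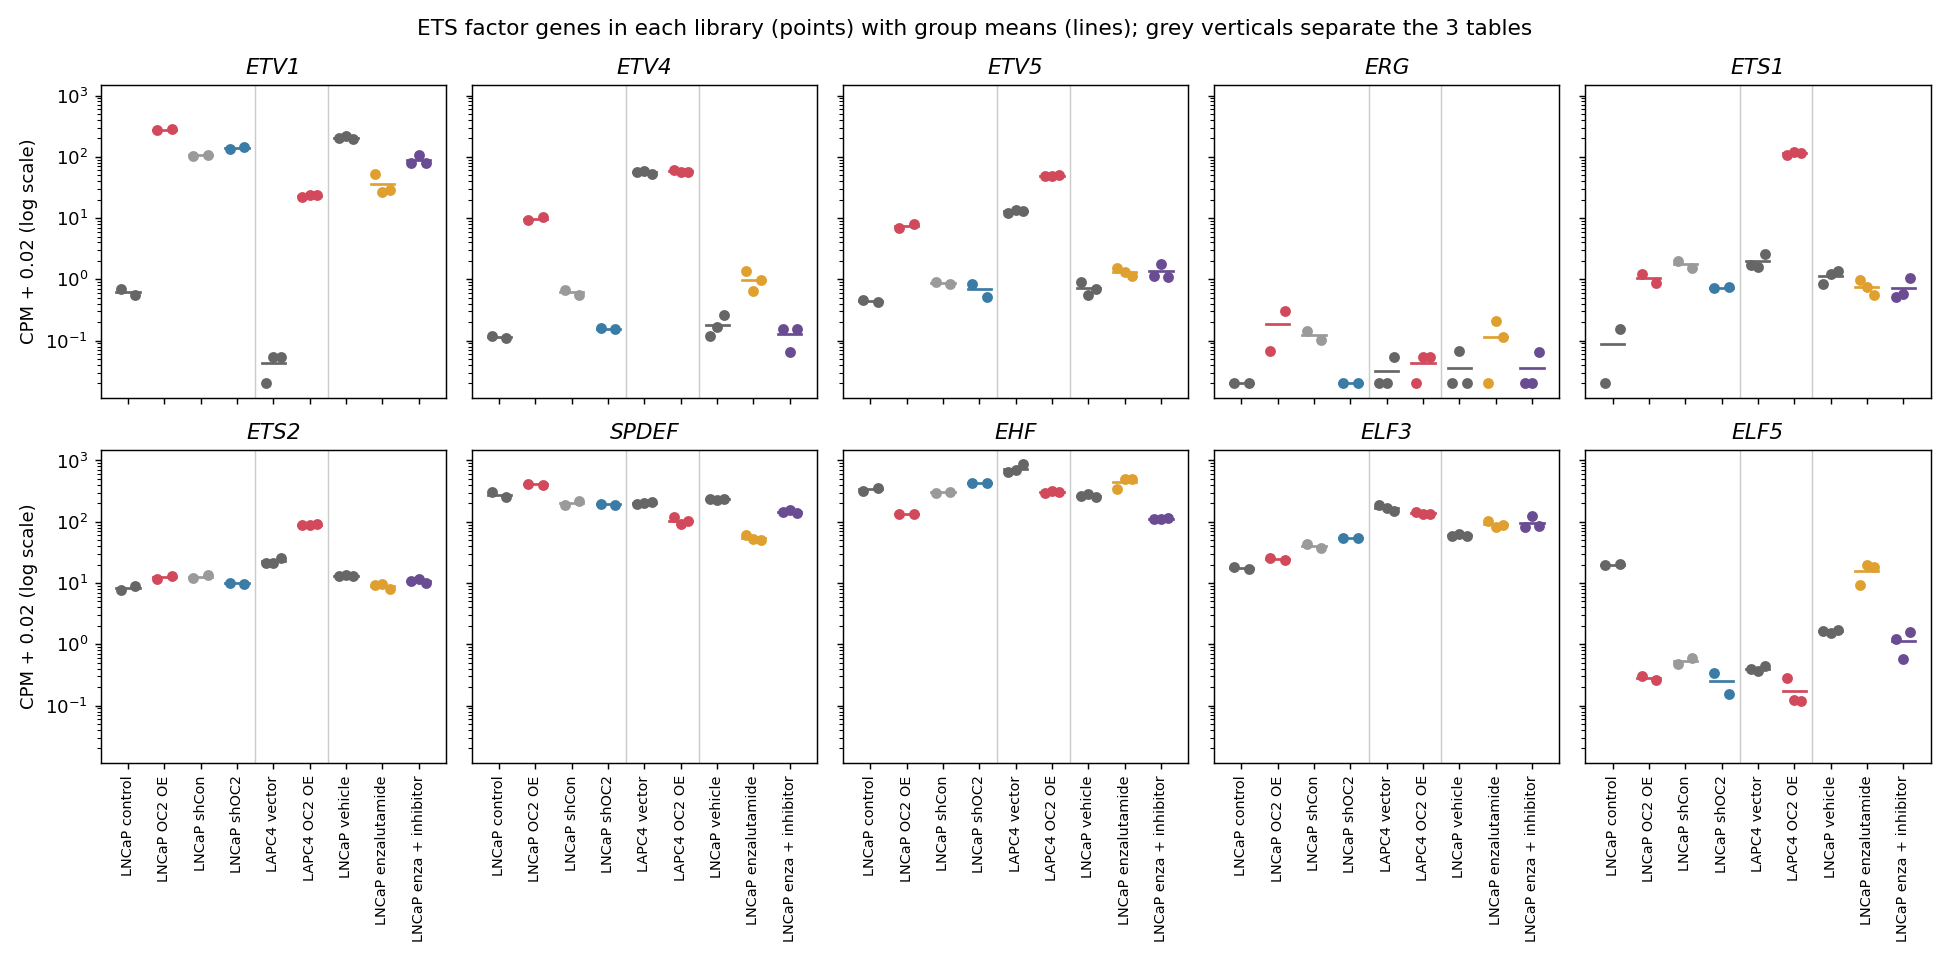
CPM of each of the 10 genes in every library (points, logarithmic vertical axis) with group means (lines), by group along the horizontal axis. ETV1 and ELF5 each span over 1 order of magnitude between LNCaP control and shCon, in opposite directions, and ETS1 stands at 108 to 120 CPM in LAPC4 overexpression and under 3 CPM in the other groups.

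ERG, the ETS gene most often rearranged in prostate tumours, was close to silent everywhere. The highest counts in any library were 6, seen in LNCaP overexpression library 2 and in 1 enzalutamide library, and ERG did not pass the low-count filter in any comparison. LNCaP overexpression held 7 counts in all against 0 in control, which with the floor of 3 counts for each control library puts its mean at least 1.19-fold higher. Of these 7 counts, 6 came from library 2, so the bound rests on 1 library. Enzalutamide held 9 counts against 1 in vehicle, a ratio of 5.74 with an interval of 0.795 to 251, which includes no difference.

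ETS1, the founding member of the family and best known from lymphocytes and endothelium, was at 1.68, 1.55 and 2.58 CPM in LAPC4 vector and at 108, 120 and 114 CPM with OC2. This was a rise of 58.8-fold (log2 fold change 5.88, SE 0.14, adjusted p = 7.44e-10), and it was 6.13 without vector library 3. Endothelial markers summed to 4.63 to 6.44 CPM in vector and 5.08 to 6.34 CPM with OC2, and blood markers to 0.207 to 0.348 and 0.305 to 0.396 CPM. The fibroblast and basal lists were higher with OC2. Fibroblast markers summed to 3.87 to 6.03 CPM in vector and 17.0 to 19.7 CPM with OC2, and basal markers to 82.2 to 193 and 480 to 507 CPM. The part of these lists in the ETS1 result was not tested. In LNCaP the direction of ETS1 depended on the control set. It was at 1.19 and 0.853 CPM in overexpression, at 0 and 0.134 in control and at 1.94 and 1.54 in shCon, with no overlap among the 3 groups. The ratio to control was 14.7 on 43 against 3 counts (95% interval 4.69 to 73.9; log2 fold change 3.75, SE 0.71, adjusted p = 0.00120), and 2.86 or 7.42 on the log2 scale without control library 1 or 2. In this comparison ETS1 passed the count filter through the overexpression group only, so the difference had to lean that way. Against shCon ETS1 was lower (log2 fold change -0.77, SE 0.31, adjusted p = 0.0466), a call that ended with DESeq2 (adjusted p = 0.218), with a replicate block (adjusted p = 0.0587), with all 4 groups fitted together, with no low-count filter and without any 1 of the 4 libraries, at -0.54 to -1.02. With the hairpin ETS1 was at 0.693 and 0.724 CPM and fell by 1.28 (log2, SE 0.31, adjusted p = 0.00624), which ended with DESeq2 (adjusted p = 0.0561) and without shCon library 1 or either shOC2 library. In the drug arms ETS1 did not pass any test, at 0.499 to 1.35 CPM.

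ETS2, an ERK-phosphorylated relative of ETS1, rose with OC2 in LAPC4 by 3.91-fold, from 21.6, 21.3 and 25.6 CPM to 87.2, 88.9 and 91.9 (log2 fold change 1.97, SE 0.08, adjusted p = 3.32e-08). In LNCaP it was at 11.6 and 13.2 CPM with OC2, 7.65 and 8.77 in control and 11.9 and 13.3 in shCon. It therefore rose against control (log2 fold change 0.58, SE 0.13, adjusted p = 0.00401) but overlapped shCon (-0.03, SE 0.12). The hairpin libraries, at 9.88 and 9.77 CPM, were lower than shCon (log2 fold change -0.35, SE 0.11, adjusted p = 0.0176), a call that ended with DESeq2 (adjusted p = 0.129), with no low-count filter, without shCon library 2 and without either shOC2 library. ETS2 was at 13.0, 13.6 and 13.0 CPM in vehicle, 9.11, 9.75 and 8.10 in enzalutamide and 10.6, 11.7 and 10.1 in combination, so that the 3 arms were separate. It was lower in enzalutamide than in vehicle (log2 fold change -0.56, SE 0.11, adjusted p = 0.00134; -0.21, adjusted p = 0.116, when only the library total was used for scaling). Combination did not pass against vehicle (-0.29, SE 0.11, adjusted p = 0.0584), but passed with a replicate block (adjusted p = 0.0351) and with those 2 arms fitted alone (adjusted p = 0.0316).

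SPDEF, the luminal and secretory-cell factor, moved in opposite directions with OC2 in the 2 lines. In LNCaP it was at 414 and 404 CPM with OC2, 301 and 253 in control and 188 and 215 in shCon, higher by 0.55 (log2, SE 0.09, adjusted p = 0.000435) and 1.02 (SE 0.06, adjusted p = 4.15e-07). In LAPC4 it was at 196, 202 and 208 CPM in vector and 120, 92.5 and 102 with OC2, lower by 1.93-fold (log2 fold change -0.95, SE 0.09, adjusted p = 1.47e-05). No library overlapped in these 3 comparisons, while the summed luminal markers were lower with OC2 in all 3. With the hairpin, at 199 and 187 CPM, SPDEF overlapped shCon (log2 fold change -0.06, SE 0.07). In the drug arms it was at 233, 225 and 237 CPM in vehicle, 59.8, 52.6 and 50.6 in enzalutamide and 142, 155 and 139 in combination. Against vehicle SPDEF was 4.26-fold lower in enzalutamide (log2 fold change -2.09, SE 0.08, adjusted p = 8.56e-09), 1.59-fold lower in combination (-0.67, SE 0.08, adjusted p = 0.000113), and combination was 1.42 above enzalutamide on the log2 scale (SE 0.08, adjusted p = 1.83e-07). SPDEF and ETV1 thus had the same order of the 3 drug arms.

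EHF, an epithelial ETS factor, was lower with OC2 in each line and against each control. It was at 135 and 133 CPM in LNCaP overexpression, 323 and 361 in control, 290 and 311 in shCon, and 423 and 423 in shOC2. EHF fell by 1.37 against control (log2, SE 0.08, adjusted p = 4.42e-07) and by 1.17 against shCon (SE 0.05, adjusted p = 4.25e-08), and rose by 0.50 with the hairpin (SE 0.05, adjusted p = 2.70e-05). In LAPC4 it fell 2.42-fold, from 651, 695 and 872 CPM to 295, 316 and 306 (log2 fold change -1.27, SE 0.11, adjusted p = 5.20e-06; -1.14 without vector library 3). In the drug arms EHF was at 264, 282 and 251 CPM in vehicle, 346, 505 and 498 in enzalutamide and 112, 110 and 113 in combination. EHF was 1.69-fold higher in enzalutamide than in vehicle (log2 fold change 0.76, SE 0.13, adjusted p = 0.000404), while in combination it was 2.38-fold lower than in vehicle (-1.25, SE 0.13, adjusted p = 5.77e-05) and 4.02-fold lower than in enzalutamide (-2.01, SE 0.13, adjusted p = 6.13e-07).

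ELF3, known from simple and glandular epithelium, was at 25.2 and 23.7 CPM in LNCaP overexpression, between control (18.0 and 16.8) and shCon (42.8 and 37.5). It was therefore higher than control (log2 fold change 0.48, SE 0.10, adjusted p = 0.00190) and lower than shCon (-0.72, SE 0.08, adjusted p = 4.11e-05). The shOC2 libraries were higher than shCon, at 55.3 and 55.2 CPM (log2 fold change 0.47, SE 0.07, adjusted p = 0.000421), a call that ended without either shOC2 library (adjusted p = 0.0566 and 0.0526). In LAPC4 ELF3 fell by 0.31 (log2, SE 0.08, adjusted p = 0.00754), from 185, 170 and 152 CPM to 143, 133 and 135. ELF3 was at 58.4, 63.8 and 58.3 CPM in vehicle and was higher in enzalutamide (102, 83.3 and 89.6; log2 fold change 0.61, SE 0.15, adjusted p = 0.00450) and in combination (81.3, 125 and 84.4; 0.69, SE 0.15, adjusted p = 0.00431, or 0.46 without combination library 2). ELF3-AS1, on the other strand, did not pass in LNCaP overexpression against control (log2 fold change -0.01, SE 0.14). In the other comparisons of these 2 tables it had the direction of ELF3, at -0.37 (SE 0.13) against shCon, 0.27 (SE 0.10) with the hairpin and -0.36 (SE 0.13) in LAPC4, all past the test, and their reads may be mixed.

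ELF5, best known as a mammary and placental factor, had the reverse of ETV1's pattern in the LNCaP control sets. It was at 19.6 and 20.3 CPM in control, 0.455 and 0.582 in shCon, 0.285 and 0.237 in overexpression and 0.323 and 0.136 in shOC2. Control was thus 38.4-fold above shCon in ELF5. Against control, overexpression was 75.5-fold lower (log2 fold change -6.24, SE 0.20, adjusted p = 1.20e-08), but against shCon it did not pass (-0.98, SE 0.48, adjusted p = 0.0964), on 5 to 14 counts per library. The hairpin comparison did not pass either (-1.15, SE 0.55, adjusted p = 0.102). In each of these LNCaP comparisons ELF5 passed the count filter through the control or shCon group only, so the differences had to lean lower. ELF5 was barely detected in LAPC4, with 10 to 12 counts in vector and 3 to 8 with OC2 (log2 fold change -1.26, SE 0.42, adjusted p = 0.0255), a call that ended with DESeq2 (adjusted p = 0.124) and without OC2 library 2 or 3. There it passed the count filter through the vector group only, so this difference too had to lean lower. In the drug arms ELF5 was at 1.66, 1.51 and 1.69 CPM in vehicle, 9.39, 19.7 and 18.6 in enzalutamide and 1.22, 0.551 and 1.59 in combination. ELF5 was 9.78-fold higher in enzalutamide than in vehicle (log2 fold change 3.29, SE 0.35, adjusted p = 1.51e-05; 3.56 without library 1), and combination was 14.1-fold below enzalutamide (-3.82, SE 0.37, adjusted p = 9.88e-06) and not distinguishable from vehicle (-0.53, SE 0.41, adjusted p = 0.317).

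Counted over the members, 9 of 10 could be tested in each comparison. In LNCaP overexpression against control 7 were higher and 2 lower, ETV1 among the higher as a description, where 60.8% of all 17046 tested genes were called, 31.6% higher and 29.3% lower. Of the 9, ETV4, ETV5, ETS1 and ELF5 passed the count filter through 1 group only and had to differ. Against shCon, 4 were higher and 3 lower, against 64% of all genes called (33.2% higher and 30.8% lower). ETV1 is again among the higher as a description, and ELF5 passed through 1 group only. With the hairpin, 3 were higher, ETV1 among them as a description, and 3 lower, against 54.1% (27.3% and 26.8%), with ETV4 and ELF5 passing through 1 group only. In LAPC4, 4 were higher and 4 lower, against 61.1% (32.1% and 29%), with ETV1 and ELF5 passing through 1 group only.

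In the drug experiment combination against vehicle gave 2 members higher and 3 lower, where 46.8% of 17422 genes were called (23.2% higher and 23.6% lower). Enzalutamide against vehicle gave 5 higher and 3 lower, where 70.4% were called (34.7% and 35.6%). Combination against enzalutamide gave 2 higher and 3 lower, where 61.9% were called (31.5% and 30.5%). In both of the comparisons with enzalutamide ETV4, among the called, passed through that group only. Scaling by the library total alone moved the median log2 fold change of all genes to 0.35 in enzalutamide against vehicle, -0.28 in combination against enzalutamide and -0.17 in LNCaP overexpression against shCon, from medians of 0.01, -0.02 and 0.01. Under it the split of all genes was 8554 higher and 4205 lower instead of 6052 and 6205, 3890 and 7858 instead of 5482 and 5305, and 4161 and 7270 instead of 5705 and 5297. Apart from ETS2 in enzalutamide, every member called in these 3 comparisons was called in the same direction under it.

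**Figure D3:**
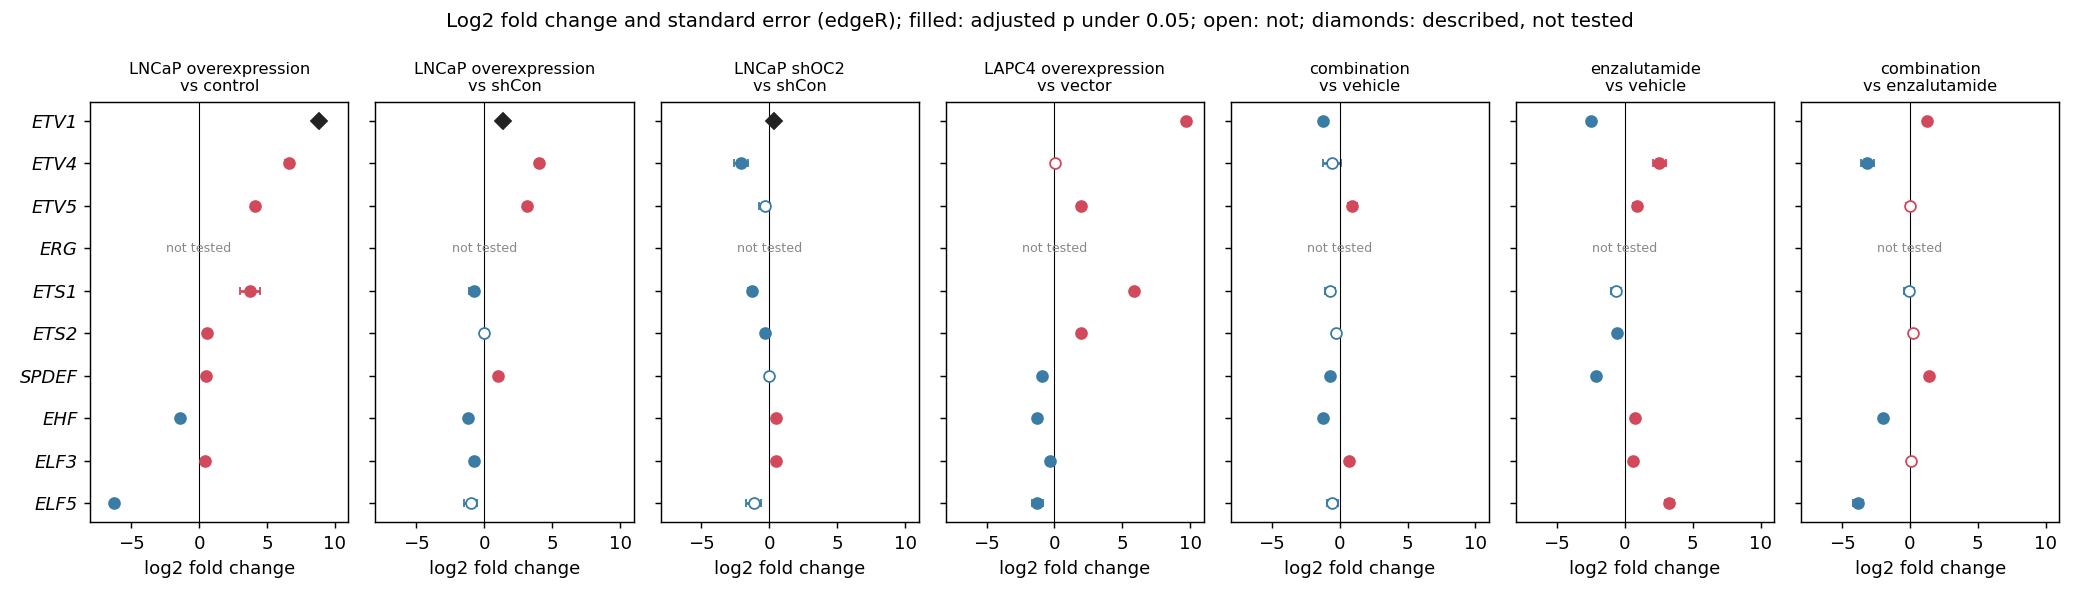
Log2 fold change (horizontal axis) with standard error for each member in the 7 comparisons, filled where the adjusted p was under 0.05, open where it was not, and diamonds for values that are descriptions. EHF lies left of 0 in both overexpression comparisons in LNCaP, in LAPC4 and in combination, and SPDEF lies right of 0 in LNCaP overexpression and left of it in LAPC4.

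A joint model tested whether the OC2 response differed between the lines, as the log2 change in LAPC4 minus that in LNCaP against control. Of 9 tested members 6 differed, 2 with a higher value in LAPC4 and 4 with a lower one, where 49.5% of 19617 genes were called (25.4% higher and 24.1% lower). ETV4 (-6.60, SE 0.27, adjusted p = 3.57e-10), ETV5 (-2.21, SE 0.24, adjusted p = 5.94e-06), SPDEF (-1.50, SE 0.14, adjusted p = 1.42e-06) and ELF3 (-0.78, SE 0.13, adjusted p = 0.000179) had the lower value in LAPC4. ETS2 (1.39, SE 0.16, adjusted p = 7.01e-06) and ELF5 (4.99, SE 0.59, adjusted p = 1.10e-05) had the higher one. With shCon as the LNCaP reference the ELF3 difference turned to 0.35 (adjusted p = 0.0324) and that of ELF5 to -0.33 (adjusted p = 0.732), so both rest on which control set was used. With that reference the ETV4 and ETV5 differences shrank to -4.03 (adjusted p = 1.03e-09) and -1.26 (adjusted p = 0.000139). For ETV1 the difference was 0.88 with control and 8.26 with shCon, given as descriptions. ETS1 did not pass with control (2.11, SE 1.27, adjusted p = 0.191) but did with shCon (6.59, adjusted p = 5.35e-09). EHF did not pass (0.09, SE 0.15, adjusted p = 0.675).

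Of the 18 other ETS genes, 13 were tested in LNCaP overexpression and 6 rose and 3 fell against control, with 7 up and 3 down against shCon, where 60.8% and 64% of all genes were called. FEV, an ETS factor of serotonergic neurons, was at 29.2 and 29.5 CPM with OC2, at 21.3 and 16.8 in control and at 0 and 0.208 in shCon. It rose by 8.06 against shCon (log2, SE 0.29) and by 0.61 against control (SE 0.12, adjusted p = 0.00131), so its control sets differed in the direction opposite to ETV1's. Against shCon FEV passed the count filter through the overexpression group only and had to differ. In LAPC4, 6 of 13 rose and 4 fell (61.1% of all genes called). ELK3, a ternary complex factor, rose there from 7.70, 8.28 and 8.57 CPM to 149, 163 and 154 (log2 fold change 4.25, SE 0.08, adjusted p = 1.42e-10). FLI1, the closest relative of ERG, had no counts in the vector libraries and 33, 26 and 29 counts with OC2, and was at least 9.47-fold higher with the same floor. In enzalutamide 8 of 14 rose and 4 fell against vehicle (70.4% of all genes called), and 2 rose and 9 fell in combination against enzalutamide (61.9%). ELF4, an ETS factor with roles in innate immunity, was 1.62 higher in enzalutamide than in vehicle (log2, SE 0.17), and ELK4, another ternary complex factor, was 1.04 lower in combination than in vehicle (log2 fold change -1.04, SE 0.07).

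Among 10 regulators of the PEA3 factors, 4 rose and 1 fell in LNCaP overexpression against control, 5 rose against shCon, 6 of 9 rose and 1 fell with the hairpin and 5 rose and 2 fell in LAPC4. Over all genes 60.8%, 64%, 54.1% and 61.1% were called in these comparisons. The regulators' share was under that of all genes in both LNCaP overexpression comparisons and over it with the hairpin and in LAPC4. With at most 10 genes in the list, these shares are not read as a result about the regulators. CIC, the transcriptional repressor of ETV1, ETV4 and ETV5, rose by 0.47 against control (log2, SE 0.11, adjusted p = 0.00433) and did not pass against shCon (0.04, SE 0.06) or with the hairpin (0.12, SE 0.06). ATXN1, a partner of CIC, fell by 1.56 with the hairpin (SE 0.19). COP1, the ligase subunit that recognises PEA3 proteins, ran from -0.48 in enzalutamide against vehicle to 0.34 in LNCaP overexpression against control (log2 ratios of mean CPM, tested group comparisons). The difference between the lines in its OC2 response was -0.60. TRIB2, a Tribbles pseudokinase of the COP1 system, followed the same groups as ELF5: it was at 16.1 and 16.2 CPM in LNCaP control and 25.4, 25.3 and 25.2 in enzalutamide, and at most 0.948 CPM in every other LNCaP library. TRIB1 rose by 1.18 in combination against vehicle (log2, SE 0.15, adjusted p = 0.000202). In the drug arms 4 of 10 regulators rose and 2 fell with enzalutamide, and 2 rose and 1 fell with combination against vehicle, beside 70.4% and 46.8% of all genes called.

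ERK-responsive genes, chosen as feedback and early genes of the pathway that acts on ETS factors, rose with OC2 in LNCaP in 13 of 14 tested cases and fell in 1, against either control set. Their median log2 fold change was 2.20 against control and 1.92 against shCon, beside 0.02 and 0.01 over all tested genes, of which 31.6% and 33.2% were called higher. Genes that passed the count filter through the OC2 group only had to differ. Against control these included DUSP6 and EGR1, at means of 0.329 and 0.402 CPM in control. SPRY1, a feedback inhibitor of receptor kinase signalling, was at 91.8 and 86.1 CPM with OC2, 5.57 and 3.92 in control and 6.99 and 8.65 in shCon. DUSP6, the ERK phosphatase, was at 6.19 CPM on average with OC2, 0.329 in control and 0.456 in shCon (log2 fold changes 4.21, SE 0.29, and 3.74, SE 0.25). EPHA2, a receptor kinase, rose by 4.20 against shCon (log2, SE 0.10). With the hairpin 10 of 15 also rose and 2 fell (median 0.80), where 27.3% of all genes were called higher and 26.8% lower. SPRY4, another feedback inhibitor, was among those that rose (4.40, SE 0.19).

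In LAPC4 11 of 16 ERK-responsive genes rose and 2 fell (median 1.38), where 32.1% of all genes were called higher and 29% lower. SPRED1, a feedback inhibitor, rose from 0.138 to 26.3 CPM on average (log2 fold change 7.53, SE 0.19), and FOSL1, an AP-1 subunit, from 1.58 to 107 CPM (6.08, SE 0.13). SPRED1 passed the count filter through the OC2 group only and had to differ, as did any other gene of this count that passed so. In combination against vehicle 6 of 14 rose and 1 fell (23.2% and 23.6% of all genes). The immediate early factors EGR1 and FOS were 5.44 (SE 0.35) and 2.99 (SE 0.51) higher on the log2 scale, and the phosphatase DUSP4 was lower (log2 fold change -2.48, SE 0.15). With enzalutamide 4 rose and 3 fell, where 70.4% of all genes were called, and FOS was among those that fell (-2.04, SE 0.52, adjusted p = 0.00510). Combination against enzalutamide gave 4 and 4, where 61.9% were called.

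Protease and invasion genes that ETS factors are known to act on rose in LAPC4 in 7 of 7 tested cases, where 32.1% of all genes were called higher. MMP3, a stromelysin, reached 78.9 CPM from 0.0348, PLAU, the urokinase plasminogen activator, 166 CPM from 2.01, MMP14, a membrane-bound metalloprotease, 117 CPM from 0.379 and MMP1, a collagenase, 31.3 CPM from 0.183, and genes that passed through the OC2 group only had to differ. Fibroblast markers, which are also mesenchymal genes, summed to 3.87 to 6.03 CPM in vector and 17.0 to 19.7 CPM with OC2, and their part in this was not tested. In LNCaP only 4 of the 9 genes passed the count filter. Of these, 3 rose and 1 fell in overexpression against control, 1 rose, 1 fell and 2 did not pass against shCon, and 3 rose with the hairpin. Over all genes 60.8%, 64% and 54.1% were called in these comparisons, and 31.6%, 33.2% and 27.3% were called higher. MMP7, matrilysin, was at 64.4 and 64.9 CPM with OC2, 0.194 and 0.356 in control, 1.53 and 1.79 in shCon and 22.99 and 22.5 in shOC2. It was thus higher than shCon both with OC2 raised (log2 fold change 5.27, SE 0.10) and with the hairpin (3.78, SE 0.13). ADAMTS1, an inhibitor of vessel growth, was lower with OC2 than either control set (-1.12, SE 0.08, and -2.47, SE 0.06).

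**Figure D4:**
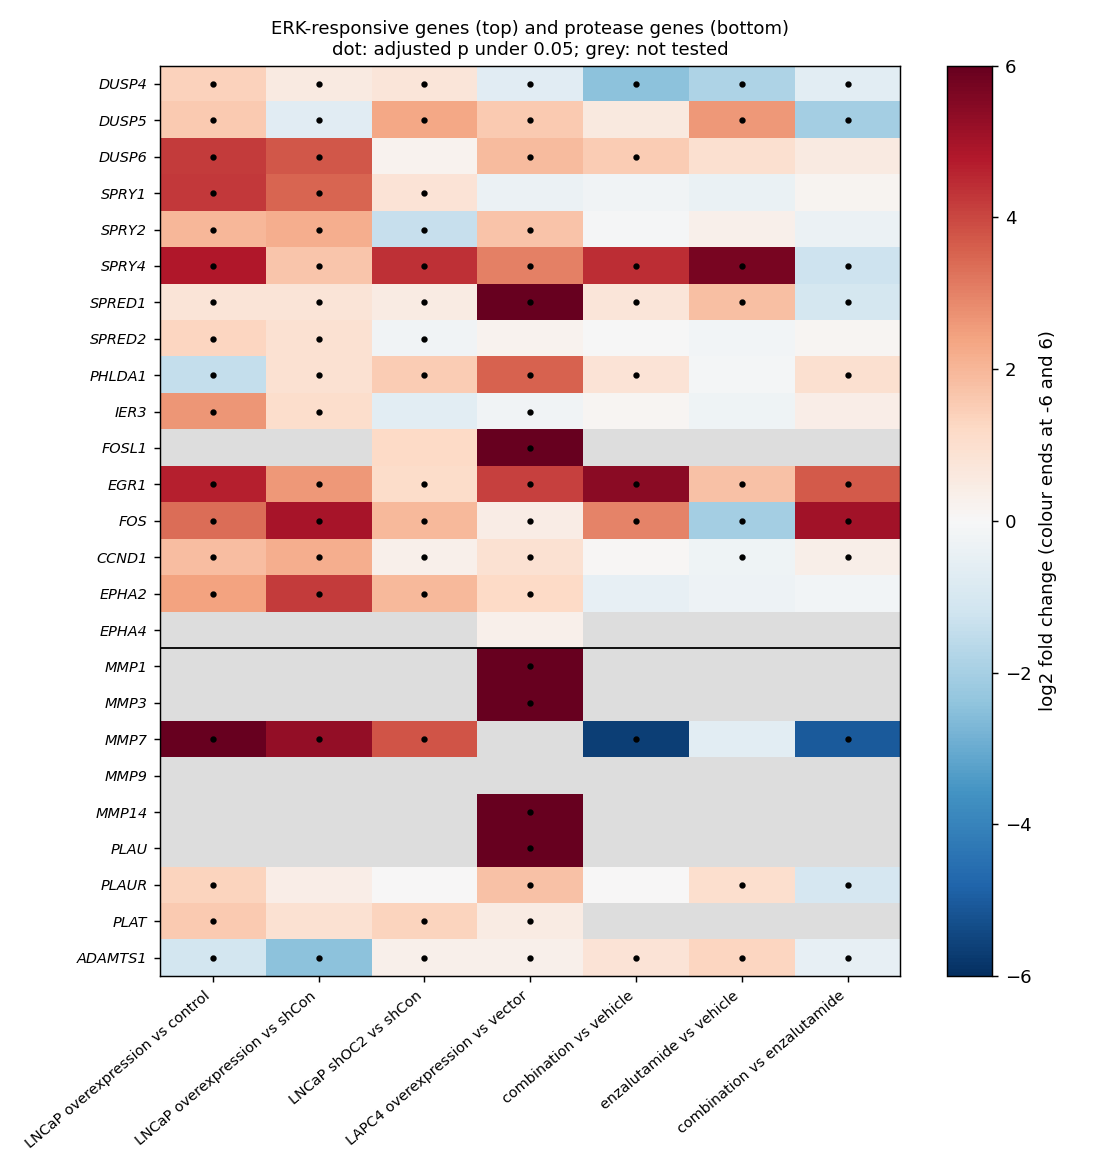
Log2 fold change (colour, ends at -6 and 6) of the ERK-responsive genes (upper rows) and protease genes (lower rows) in each comparison (columns), with a dot where the adjusted p was under 0.05 and grey where a gene was not tested. The 2 LNCaP overexpression columns are nearly all red in the upper rows, and the tested protease rows are red in LAPC4, palest for ADAMTS1.

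Genes reported in tumours with ERG fusions gave no common direction. In LNCaP overexpression 5 of 7 tested rose and 2 fell against either control set, in LAPC4 3 of 8 rose and 4 fell, with the hairpin 2 rose and 4 fell, and in combination against vehicle 3 rose and 5 fell. Over all genes 60.8% and 64% were called against the 2 control sets, 61.1% in LAPC4, 54.1% with the hairpin and 46.8% in combination. PLA2G7, a lipoprotein-associated phospholipase, was at 26.8 CPM on average with OC2 in LNCaP, 3.18 in control and 1.41 in shCon. KCNN2, a potassium channel, fell by 2.10 against shCon (log2, SE 0.06), and by 3.42 (SE 0.31) and 2.99 (SE 0.29) in combination and enzalutamide against vehicle. Of the 12 genes next to ETV1 at its home locus and at the site where LNCaP carries the insertion, 5 of 9 tested rose and 4 did not pass in overexpression against control, 4 rose and 2 fell against shCon, and 2 of 8 rose and 5 fell with enzalutamide. In these 3 comparisons 60.8%, 64% and 70.4% of all genes were called. MIPOL1, at the insertion site, was higher in overexpression than in control (log2 fold change 0.38, SE 0.10) and lower than in shCon (-0.55, SE 0.08), so it did not share the range of ETV1. DGKB, at the home locus, averaged 19.0 CPM in vehicle, 6.19 in enzalutamide and 9.48 in combination, the order of the 3 arms that ETV1 had. It fell by 1.61 with enzalutamide (log2, SE 0.12), and combination was 0.62 above enzalutamide (SE 0.12).

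The 5 genes whose level was most like that of ETV1 over the 8 LNCaP libraries of the overexpression and knockdown table, among 3712 genes with a mean of at least 5 CPM and a log2 range of at least 1, were CHMP4A, a membrane-scission subunit (Pearson r = 0.997), VAT1 (0.995), WDR48, a cofactor of deubiquitinases (0.995), SNX10, a sorting nexin (0.994), and CCNB1IP1 (0.993). The correlation was taken on log2(CPM + 1). The 8 points fall in 4 groups and the control libraries are the low ones for all 6 genes, so these values mostly describe that shared gap. CHMP4A was at 0.121 CPM on average in control, 11.9 in shCon, 11.7 in shOC2 and 17.6 in overexpression, the nearest to ETV1's near absence in control. VAT1, at 38.6, 128, 154 and 168 CPM in the same order of groups, was present in control.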

How the data were processed

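RNA-seq read counts of 23 libraries in 9 groups were used, grouped as the sample labels name them. For LAPC4 the authors deposited whole-number counts by Ensembl identifier. In the table of LNCaP overexpression and knockdown, and for vehicle and combination in the drug table, the authors deposited estimated counts, which were rounded here. The enzalutamide columns hold whole counts as deposited and carry no replicate number, so each enters only as a library of its group. FastQC 0.9.0, Bowtie2 and the build hg38 are named in the submitters' processing notes, while the counting tool and annotation were not given in the sources used here. Symbols came from the files or from the reference tables (a current symbol for 99.5%, 98.7% and 62.9% of the identifiers in the LNCaP, LAPC4 and drug tables), and repeated symbols were summed.

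The members and gene lists were chosen with earlier results of these data known. A gene of the lists is not reported here and was left out of their counts. Of the lists, genes were named where called with a change of 2-fold or more and averaging 5 CPM or more in the group with the higher level, up to 4 per list and comparison, or where they are known regulators of ETV1. Of these, a subset is printed, and FLI1, MIPOL1, the overlapping genes and FEV against control were named outside the rule, after their values were seen. Each comparison was fitted with edgeR 4.0.16 in R 4.3.3: TMM scaling, filterByExpr, quasi-likelihood F-test and Benjamini-Hochberg adjustment over all tested genes, with a threshold of 0.05. All adjusted p-values printed are from that test unless another tool is named. The fit held only the groups compared for LNCaP and LAPC4, and all 3 arms for the drugs, and the difference between lines in a joint model over genes in both tables. Levels are CPM on the TMM-scaled size over a whole table, with SD over libraries. Where a group held no counts the fold is a bound from a floor of 3 counts per library, and with 1 to 3 counts the ratio has an exact Clopper-Pearson 95% interval. Both cover counting error only. DESeq2 1.42.0, other scalings, no filter, a replicate block, other fitted samples and leaving out each library were alternatives. On simulated counts for LNCaP overexpression against control (17046 genes, 200 changed), the test found 75% of the 2-fold and 94% of the 4-fold changes, with 14 false calls. For LAPC4 (16904 genes) it found 81% and 96%, with 17 false calls. For combination against enzalutamide it found 60% and 91%, and for the difference between lines 61% and 73%. The changed genes were split evenly up and down and were far fewer than those called in the real comparisons. The rates in the real data may therefore differ.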

Additional observations from a re-analysis of the deposited data

Results flagged for a closer look

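For 6 members the response to OC2 differed between the lines by a test of the difference itself, as log2 change in LAPC4 minus that in LNCaP against control (edgeR). The differences were -6.60 for ETV4, -2.21 for ETV5, -1.50 for SPDEF and -0.78 for ELF3, and 1.39 for ETS2 and 4.99 for ELF5. ETV4 was at 56.6 ± 3.55 CPM (SD, n = 3) in LAPC4 vector and at 0.0929 CPM in LNCaP control, so its starting levels were far apart. SPDEF is the member that rose in 1 line and fell in the other against both LNCaP control sets. The ELF3 and ELF5 differences changed sign with shCon as the LNCaP reference, and those of ETV4 and ETV5 became -4.03 and -1.26. The lines were counted in separate tables, with 2 libraries a group in LNCaP and 3 in LAPC4, and the part of that in these differences was not tested.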

How the results depend on the processing

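Of 808 values recomputed for single members, 749 kept their direction and side of the threshold, 35 were no longer past it, 8 came past it and 16 changed sign, of which 2 belong to members that passed the test. Those 2 are ELF3 (0.35) and ELF5 (-0.33) in the difference between lines with shCon as the LNCaP reference, where EHF also turned (-0.16). The other sign changes were of members that did not pass. Scaling by the library total turned ETV5 (-0.24) and ELF3 (-0.19) in combination against enzalutamide. Leaving out 1 library at a time gave ranges across 0 for ETS2 in LNCaP overexpression against shCon (-0.11 to 0.075), SPDEF with the hairpin (-0.15 to 0.036), ETV4 in LAPC4 (-0.012 to 0.065), ETS1 (-0.46 to 0.17), ETV5 (-0.23 to 0.16) and ELF3 (-0.13 to 0.20) in combination against enzalutamide, and ETS1 in the difference between lines (-1.88 to 3.02). The cause was not tested.

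Of 90 recomputed counts of members called, 87 were within 1.5 times the count reported. The exceptions all concern the hairpin, where 6 members were called: DESeq2 called 3, and 2 were called without shOC2 library 1 and without library 2. Leaving out 1 library gave 9 in LNCaP overexpression against control, 6 against shCon, 2 to 5 with the hairpin, 7 to 8 in LAPC4, 4 to 5 and 7 to 8 in combination and enzalutamide against vehicle, 5 to 6 between them, and 6 to 7 in the difference between lines. A replicate block gave 9, 6, 6, 8 and 5 members called in the comparisons whose libraries carry numbers, in the order above up to combination against vehicle, and changed 3 single calls (ETS1, ETV5, ETS2), printed beside them. Replicate numbers did not pair the libraries: deviations of same-numbered libraries correlated at -0.10 to 0.11. Enzalutamide columns carry no number, so no block could be fitted for them. Depth limits ERG, ETS1 in LNCaP, ELF5 outside LNCaP control and enzalutamide, and ETV4 in the drug arms, which rest on few counts.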
